A study of Mus musculus with 22 samples.

Results

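The loss of MK3 in cells that already lacked MK2 was examined in resting bone marrow-derived macrophages (BMDM), by setting 3 arrays of MK2/3-/- BMDM in medium against 4 arrays of MK2-/- BMDM in medium. These 7 arrays were chosen by genotype and treatment from the 22 arrays of the series. Both groups carry the MK2 deficiency, so the comparison asks what the further lack of MK3 was accompanied by when no lipopolysaccharide (LPS) was given. Cells that lack MK3 alone are not among the arrays analysed here. The macrophages were grown with M-CSF from femoral bone marrow of male mice and kept in culture medium for 360 min. The mice were 10, 11, 12 and 13 weeks old in the MK2-/- group and 11, 12 and 12 weeks old in the MK2/3-/- group. The same genotypes treated with LPS at 100 ng/ml for 360 min (4 arrays each) and 4 arrays of wild-type (wt) BMDM in medium serve as reference below. With LPS the mice were 10, 11, 12 and 13 weeks old (MK2-/-) and 11, 12, 14 and 12 weeks old (MK2/3-/-). The wt mice in medium were 12, 13, 13 and 12 weeks old. The labels do not say how the alleles were made.

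MK2 and MK3 are closely related serine/threonine kinases that are phosphorylated and activated by the MAP kinases p38α and p38β. In macrophages they are known for acting on RNA-binding proteins such as tristetraprolin, which sets the stability and translation of cytokine mRNAs, and for stabilising p38 itself in the nucleus. Mapkapk2 encodes MK2 and Mapkapk3 encodes MK3. MK2 is usually the more abundant and more active of the pair, and MK3 can take over part of its work where MK2 is missing.

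Each array carried 62976 spots hybridised with Cy3-labelled RNA of 1 sample. Values are given as normalized log2 signal, so that a difference of 1 is a 2-fold change, and a gene was represented by the brightest of its probes. The share of spots well above background was 63.4 to 75.7% on the MK2-/- medium arrays and 73.1 to 75.9% on the MK2/3-/- medium arrays. All arrays of a genotype lay on 1 slide of their own, so that slide and genotype cannot be told apart in any comparison between genotypes. One MK2-/- medium array went against its label. Ddx3y, a Y-linked gene, read 2.01 on replicate 3 and 10.09 to 11.15 on the other 6 arrays compared. Eif2s3y, also Y-linked, read 3.31 there and 11.09 to 12.38 elsewhere, while Xist, transcribed from the inactive X chromosome, read 7.78 there and 3.77 to 4.85 elsewhere. The count of called genes is therefore also given without that array. The median over a list of Y-linked genes and Xist was 2.01 there, 4.6 on MK2-/- replicate 2 and 6.76 to 7.12 on the other arrays compared.

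The targeted gene was lower in every MK2/3-/- array. Mapkapk3 read 13.16, 12.39, 12.94 and 13.10 on the MK2-/- arrays, against 11.15, 10.94 and 11.40 on the MK2/3-/- arrays. The groups did not overlap, and wt BMDM (12.83 to 13.42) lay with the MK2-/- arrays. The difference was -1.73 ± 0.24 (SE; 3.33-fold lower; limma adjusted p = 0.000464). With LPS the gap was wider. Mapkapk3 then read 11.92 to 12.57 in MK2-/- BMDM and 7.65 to 8.55 in MK2/3-/- BMDM, a difference of -4.35 (limma adjusted p = 1.47e-09). The change of the gap itself was -2.61 (limma adjusted p = 0.00412). Where the probe lies relative to the targeted part of the gene is not given in the sources used here, so a remaining signal does not say whether intact transcript was left.

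Mapkapk2 was low in both groups. It read 8.70 to 9.01 in the MK2-/- arrays, 8.34 to 8.50 in the MK2/3-/- arrays and 10.77 to 12.39 in wt BMDM. Its difference between the knockout groups was -0.44 ± 0.31 (SE), with a 95% interval of -1.10 to 0.22 and a limma adjusted p of 0.577.

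**Figure D1:**
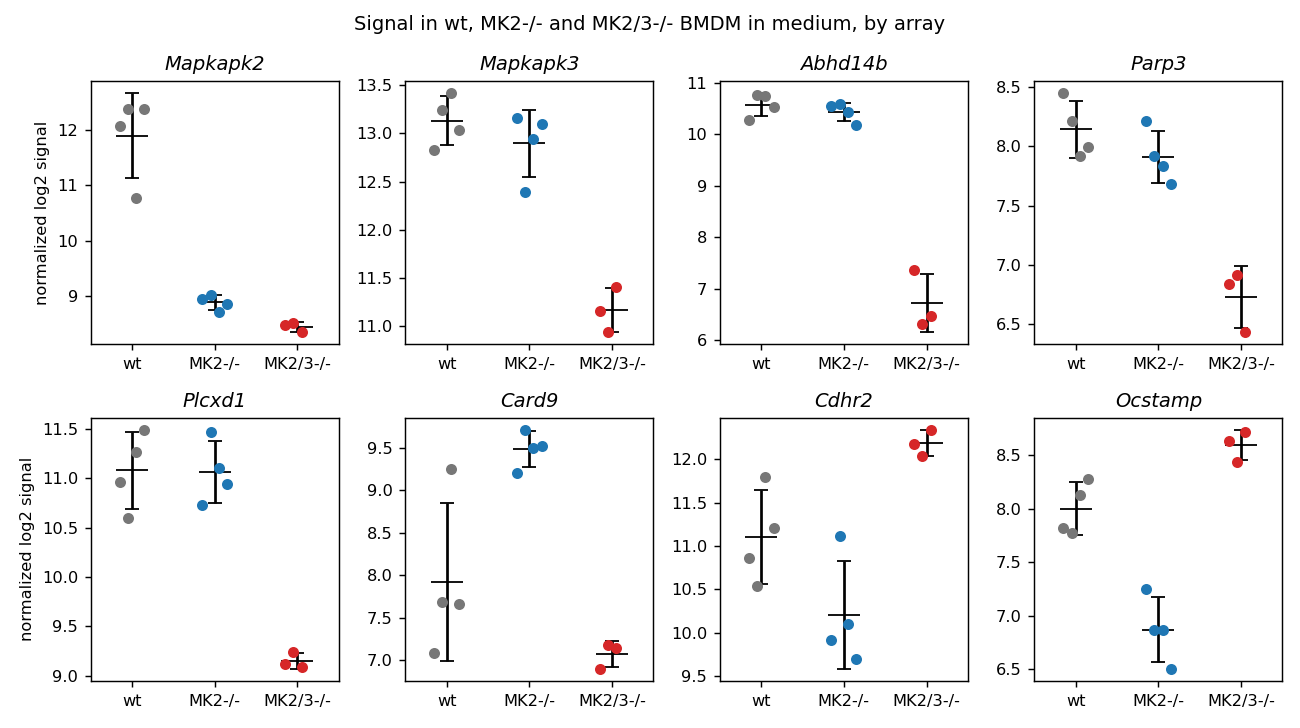
Normalized log2 signal of 8 genes in medium on each array of wt (4), MK2-/- (4) and MK2/3-/- (3) BMDM. Points are arrays, horizontal bars are means and vertical bars are 1 SD, and each panel has its own axis range. Mapkapk3, Abhd14b, Parp3, Plcxd1 and Card9 were lower and Cdhr2 and Ocstamp higher in all 3 MK2/3-/- arrays than in all 4 MK2-/- arrays.

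At a limma adjusted p below 0.05, 632 of 22318 genes tested (2.83%) were called between the groups, 446 (2%) higher and 186 (0.833%) lower in MK2/3-/- BMDM. Of these, 564 differed at least 2-fold, 416 of them higher. In 624 of the 632 the 7 arrays did not overlap between groups, against 17.8% of all genes tested. The direction of the calls moved with the scaling: 75th percentile scaling called 442 genes higher and 52 lower. The count fell to 399 (325 higher) without the MK2-/- array of low Y-linked signal, and to 294, 354 and 355 without MK2/3-/- replicate 1, 2 or 3. The replicate number was also entered as a block in a fit of the 7 arrays, which leaves 2 residual degrees of freedom. There limma called 0 genes, although 3703 had an unadjusted p below 0.05. The main fit of 22 arrays, without the block, had 3352 such genes. With the same block in a fit of all 22 arrays, 666 genes were called. Every call named below was thus absent in the blocked fit of 7 arrays, where the lowest adjusted p was 0.0661 and that of Mapkapk3 was 0.0802.

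Among the called genes that were well above background on all 7 arrays, the largest difference lay close to the targeted locus. Abhd14b, which encodes an α/β-hydrolase, read 10.54, 10.58, 10.43 and 10.18 on the MK2-/- arrays, against 7.37, 6.32 and 6.47 on the MK2/3-/- arrays. Wt BMDM, at 10.28 to 10.76, did not stand apart from the MK2-/- arrays, and all MK2/3-/- arrays lay far below both. The difference was -3.71 ± 0.38 (SE; 13.1-fold lower; limma adjusted p = 5.68e-05). It kept its call in all 22 fits that left out 1 array, between -4.04 and -3.51. With LPS it was -3.74 (limma adjusted p = 3.06e-06), from 6.94 to 8.80 in MK2-/- BMDM and 3.18 to 4.87 in MK2/3-/- BMDM.

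Genes were therefore followed along chromosome 9 on either side of Mapkapk3. Of 60 annotated neighbours (30 on each side), 40 were tested and 4 were called, all lower in MK2/3-/- BMDM. Against this stood 2.83% of all genes called, and 0.833% called lower. The 40 had a median difference of -0.05, and 20 of them were negative. Besides Abhd14b, 27 genes away, the called neighbours were Pcbp4 (26 genes away), Parp3 (24 genes away) and Cish (2 genes away). For the 60 neighbours of Mapkapk2, the locus altered in both groups, 29 were tested and 0 were called. Over the whole of chromosome 9, 27 of 1030 genes (2.62%) were called, 11 of them lower. These counts are for medium. With LPS, 9 of the 40 neighbours of Mapkapk3 were called, 7 of them lower, beside 13.6% of all genes. For Mapkapk2, 5 of the 29 were called with LPS, 3 of them lower.

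Parp3, a mono-ADP-ribosyltransferase that acts at DNA breaks, read 7.68 to 8.21 in MK2-/- BMDM and 6.43 to 6.91 in MK2/3-/- BMDM. Its difference was -1.19 ± 0.20 (SE; limma adjusted p = 0.00223). With LPS the Parp3 difference was 0.31 (limma adjusted p = 0.301), and the shift between treatments was itself called (1.49, limma adjusted p = 0.0471), though in only 3 of 22 fits without 1 array. Pcbp4, which encodes a poly(C)-binding RNA-binding protein, read 9.27 to 9.49 in MK2-/- BMDM, against 7.34, 7.12 and 8.61 in MK2/3-/- BMDM. Its difference of -1.70 ± 0.42 (SE; limma adjusted p = 0.0334) was not called without any 1 of the MK2-/- medium arrays or of MK2/3-/- replicates 1 and 2 (adjusted p 0.0609 to 0.167). With LPS it was -0.22. Cish, a SOCS family inhibitor of cytokine receptor signalling through STAT5, was dim. It read 4.21 to 5.56 in MK2-/- BMDM, and at 1.99, 2.19 and 3.84 it was not well above background on any MK2/3-/- array. It was at least 3.15-fold lower (limma adjusted p = 0.0167), a bound that takes for each dim array the higher of its own value and the lowest signal well above background there. The Cish difference was not called without MK2-/- replicate 1 or MK2/3-/- replicates 1 or 2 (adjusted p 0.0571 to 0.108). In Pcbp4 and Cish, 1 MK2/3-/- array, replicate 3, lay well above the other two.

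Abhd14a, a gene of the same hydrolase family that lies next to Abhd14b, was singled out after its values were seen. It read 8.47, 7.19, 9.25 and 8.47 on the MK2-/- arrays, against 5.51, 5.73 and 7.04 on the MK2/3-/- arrays. The groups did not overlap, but the difference of -2.25 did not pass the test (limma adjusted p = 0.0611). It passed without MK2-/- medium replicate 2 (adjusted p = 0.0295) and without MK2/3-/- LPS replicate 4 (adjusted p = 0.0165). With LPS it was -2.39 (limma adjusted p = 0.0104).

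Promoter sequences from RefSeq (build GRCm38.p6) are shown for 4 genes: the targeted gene, Cish as its nearest called neighbour, Abhd14b as the neighbour with the largest difference and Abhd14a as the gene that starts beside Abhd14b. Each window runs from 250 bases before the annotated start to 50 bases after it, 5′ to 3′ on the strand of the gene, and of the 2 start sites listed for Mapkapk3 the first is shown. Capitals mark TTCNNNGAA, the palindromic core that STAT proteins are known to bind, or the core known for NRF1, which is GCGCA and GCGC with any 1 base between them. Both strands were searched, and the 2 motifs did not overlap each other.
Mapkapk3 (chr9:107289828-107290127, minus strand): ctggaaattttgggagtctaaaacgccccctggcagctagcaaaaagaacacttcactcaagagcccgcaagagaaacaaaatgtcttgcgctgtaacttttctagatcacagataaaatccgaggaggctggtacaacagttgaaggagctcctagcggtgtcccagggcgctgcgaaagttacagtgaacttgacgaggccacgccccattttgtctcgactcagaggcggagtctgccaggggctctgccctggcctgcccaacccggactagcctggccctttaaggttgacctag
Cish (chr9:107296409-107296708, plus strand): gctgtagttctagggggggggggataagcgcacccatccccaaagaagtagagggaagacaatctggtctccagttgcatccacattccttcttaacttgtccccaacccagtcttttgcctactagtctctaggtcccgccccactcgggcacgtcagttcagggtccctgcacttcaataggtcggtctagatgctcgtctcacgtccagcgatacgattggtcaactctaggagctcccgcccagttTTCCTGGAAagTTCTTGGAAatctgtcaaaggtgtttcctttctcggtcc
Abhd14a (chr9:106447629-106447928, minus strand): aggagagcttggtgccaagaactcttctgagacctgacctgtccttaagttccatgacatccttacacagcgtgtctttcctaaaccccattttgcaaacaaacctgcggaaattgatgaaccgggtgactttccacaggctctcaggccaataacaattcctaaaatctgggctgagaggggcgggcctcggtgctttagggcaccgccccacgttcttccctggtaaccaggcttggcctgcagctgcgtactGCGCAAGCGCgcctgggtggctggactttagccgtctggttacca
Abhd14b (chr9:106448390-106448689, plus strand): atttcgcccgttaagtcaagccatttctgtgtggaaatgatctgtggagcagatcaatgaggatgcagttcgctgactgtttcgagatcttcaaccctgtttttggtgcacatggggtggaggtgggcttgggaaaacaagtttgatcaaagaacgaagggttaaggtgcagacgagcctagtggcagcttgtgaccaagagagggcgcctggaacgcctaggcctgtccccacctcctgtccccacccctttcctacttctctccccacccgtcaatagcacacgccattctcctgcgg

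Abhd14a and Abhd14b are transcribed away from each other, with 962 bases between the start sites, while the start sites of Mapkapk3 and Cish, also divergent, lie 6782 bases apart. The Cish window held 2 matches to TTCNNNGAA at its start site, where 8.30% of 32851 promoter windows of this length held at least 1 match and 0.457% held 2 or more. The Abhd14a window held 1 match to the NRF1 core, found in 4.60% of windows. Neither motif occurred in the windows of Mapkapk3 and Abhd14b. The 4 windows therefore shared neither of these letter patterns.

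**Figure D2:**
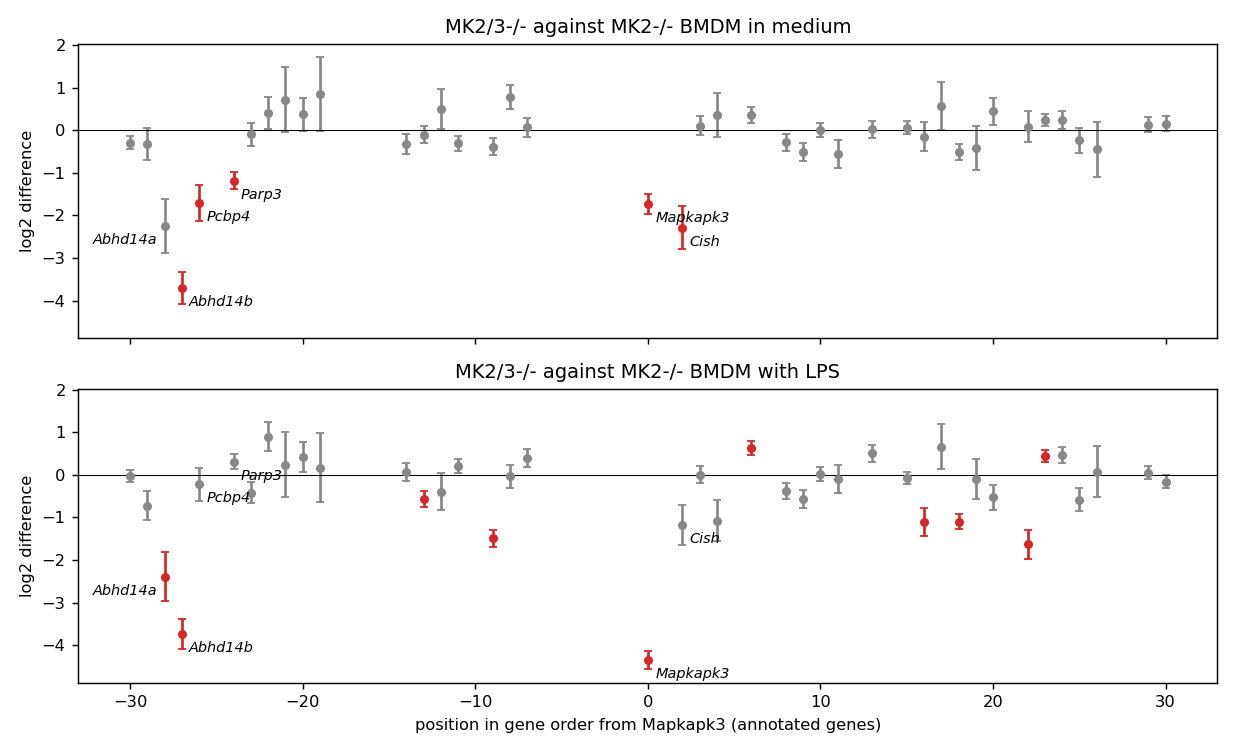
Log2 difference between MK2/3-/- and MK2-/- BMDM for Mapkapk3 (position 0) and the tested genes among its 30 annotated neighbours on each side, in medium (top) and with LPS (bottom). Bars are standard errors of the limma fit and red points passed an adjusted p of 0.05. Abhd14b was the lowest neighbour in both panels, and Parp3, Pcbp4 and Cish were called in medium and not with LPS.

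Signal strength divided the calls. Of the 632 genes, 284 had a probe well above background on all 7 arrays, 180 higher and 104 lower, or 1.68% of the 16934 genes so measured. The other calls rested on a probe that was not well above background on at least 1 of the 7 arrays. Among genes with a mean log2 signal below 6, 5.16% were called, against 0.592% of those at 10 and above. The median difference over all genes was -0.03, and it ranged from -0.06 to -0.01 over 4 bands of signal. Only 105 further probes that passed the filter were present for called genes (88 genes), and 6 of them were called in the direction of the gene, 2 were called in the opposite direction and 53 had the same sign.

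**Figure D3:**
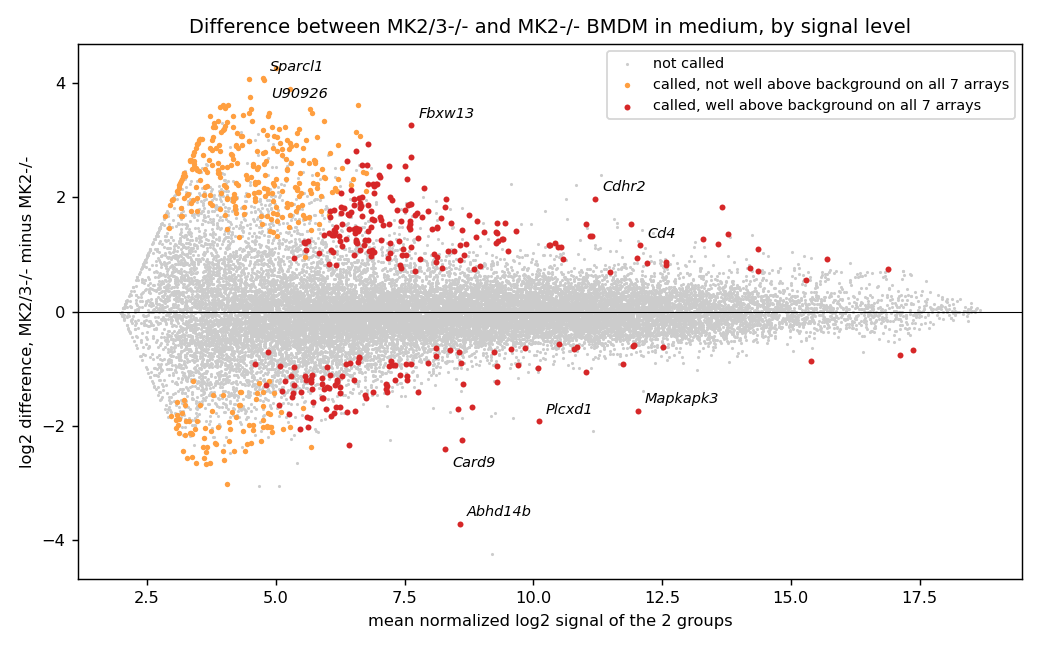
Mean normalized log2 signal (x axis) against the log2 difference between MK2/3-/- and MK2-/- BMDM in medium (y axis) for 22318 genes. Grey points were not called, orange points were called with a probe that was not well above background on all 7 arrays and red points were called with one that was. Fbxw13 was the only red point above 3, and the other called genes above 3 were orange points at low signal.

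Of the called genes with a symbol that were well above background on all 7 arrays, had a mean log2 signal of at least 9 and did not overlap between groups, 38 were found, 20 higher and 18 lower. This selection was made after the values were seen. Plcxd1, named for its phospholipase C X domain, read 10.73 to 11.47 in MK2-/- BMDM and 9.09 to 9.24 in MK2/3-/- BMDM. Its difference of -1.91 ± 0.21 (SE; limma adjusted p = 6.33e-05) kept its call whichever array was left out, and wt BMDM (10.60 to 11.49) lay with the MK2-/- arrays. Zfp932, a zinc finger gene, was -1.23 ± 0.31 (SE; limma adjusted p = 0.0371), with wt BMDM at 9.90, close to the MK2-/- mean of 9.91. It lost its call when any 1 of the 7 medium arrays was left out (adjusted p 0.053 to 0.146). Hars, the cytosolic histidyl-tRNA synthetase, was -1.06 ± 0.26 (SE; limma adjusted p = 0.0331) and lost its call without MK2-/- replicates 2, 3 or 4 or MK2/3-/- replicates 1 or 2 (adjusted p 0.0533 to 0.177). Unlike the preceding genes, its mean in wt BMDM (10.28) was near that of the MK2/3-/- arrays (10.50) and below that of the MK2-/- arrays (11.55).

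Card9 had a lower mean signal than these genes. It encodes the adaptor that links C-type lectin receptors to NF-κB in myeloid cells. It read 9.20 to 9.71 in MK2-/- BMDM, 6.90 to 7.18 in MK2/3-/- BMDM and 7.09, 7.69, 9.25 and 7.66 in wt BMDM. The difference was -2.40 ± 0.40 (SE; 5.30-fold lower; limma adjusted p = 0.00219), while 3 of the 4 wt arrays lay between the knockout groups or just at the level of MK2/3-/- BMDM. With LPS it was -1.38 (limma adjusted p = 0.0198).

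Among the brighter genes that were higher, Cdhr2, a protocadherin best known from epithelial microvilli, led. It read 9.92, 11.11, 10.10 and 9.70 on the MK2-/- arrays, against 12.17, 12.04 and 12.34 on the MK2/3-/- arrays. The difference was 1.98 ± 0.33 (SE; 3.94-fold; limma adjusted p = 0.00223), and wt BMDM (10.54 to 11.80) lay between. Crabp2, a carrier of retinoic acid, was higher by 1.41 ± 0.27 (SE; limma adjusted p = 0.00505). Arfip1, encoding arfaptin-1 of the Golgi, was higher by 1.28 ± 0.19 (SE; limma adjusted p = 0.00105). Ppp5c, a serine/threonine phosphatase, was higher by 1.06 ± 0.25 (SE; limma adjusted p = 0.0238), with wt BMDM at 10.16 and MK2/3-/- BMDM at 10.04. It lost its call without MK2-/- replicate 2 or any 1 of the MK2/3-/- medium arrays (adjusted p 0.0515 to 0.13). Cdhr2, Crabp2 and Arfip1 kept theirs in all 22 fits that left out 1 array.

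The semaphorin receptor Plxna1 was higher by 1.16 ± 0.23 (SE; limma adjusted p = 0.00743), which was not called without MK2/3-/- replicate 3 (adjusted p = 0.0522). For the sorting receptor Sort1 the brightest probe gave 1.13 (limma adjusted p = 0.0376) and its 2 other probes gave -0.76 and 0.33 with no call. The Sort1 call was lost in 6 of 22 fits, those without MK2-/- replicates 1, 3 or 4 or any MK2/3-/- medium array. Rap1a, a small GTPase of integrin activation, was dimmer and differed more. It read 5.39 to 7.12 in MK2-/- BMDM, 8.57 to 8.98 in MK2/3-/- BMDM and 7.86 to 8.53 in wt BMDM, a difference of 2.33 ± 0.42 (SE; limma adjusted p = 0.00368).

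Further down in signal, but still well above background on all 7 arrays, the largest difference was that of Fbxw13, an F-box gene that lies 103 genes from Mapkapk3 on chromosome 9. It read 5.48 to 6.31 in MK2-/- BMDM, 9.06 to 9.59 in MK2/3-/- BMDM and 7.25 to 9.29 in wt BMDM (3.26 ± 0.62, SE; limma adjusted p = 0.00516). Nrgn, encoding the calmodulin-binding protein neurogranin, was higher by 2.71 (limma adjusted p = 0.00109) and Prss33, a serine protease gene, by 2.57 (limma adjusted p = 0.000177). In the other direction, Siglecg, an inhibitory sialic acid receptor, was -1.71 (limma adjusted p = 0.0179), but its other probe gave 0.78 with no call. Siglecg was not called without MK2/3-/- replicates 1 or 2 (adjusted p 0.0938 and 0.103). Il22ra1, a subunit of the interleukin-22 receptor, was -2.01 (limma adjusted p = 0.00513).

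The largest positive differences came from probes that were at the lower end of the signal on the MK2-/- arrays. Of the 446 higher genes, 142 were not well above background on any MK2-/- array, and a further 124 on only 1 to 3 of them. Sparcl1, a secreted matrix protein of the SPARC family, read 2.03, 3.47, 3.28 and 2.03 on the MK2-/- arrays, against 6.80, 6.60 and 6.99 on the MK2/3-/- arrays. Wt BMDM read 5.25 to 6.78, so the low group was the MK2-/- one. It was at least 8.77-fold higher in MK2/3-/- BMDM (limma adjusted p = 0.000464). Doc2b, a calcium sensor of exocytosis, read 2.01 to 2.83, 5.62 to 6.01 and 4.94 to 5.79 in MK2-/-, MK2/3-/- and wt BMDM, and was at least 4.83-fold higher (limma adjusted p = 0.00011). Olfr944, an olfactory receptor gene, was at least 8.003-fold higher (limma adjusted p = 0.000669). Gm20767, Cyp4a12a and Vmn1r73, also not well above background on any MK2-/- array, were at least 6.60-fold, 6.095-fold and 4.81-fold higher. Colca2, Npas3, Ccdc78, Cyp2c66 and Scgb2b2 were called higher with only 1 or 2 MK2-/- arrays well above background, so that the size of their differences is uncertain. Colca2 was not called in 6 of 22 fits without 1 array, Vmn1r73 in 3 and Ccdc78 in 1, at adjusted p of up to 0.107 for Colca2 (without MK2/3-/- replicate 3).

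Gene families with little known expression in macrophages appeared among these calls. Of 673 olfactory receptor genes tested, 40 (5.94%) were called, 33 of them higher, beside 5.16% of all genes with a mean signal below 6, and 296 of the 673 were well above background on all 7 arrays. Of 166 vomeronasal receptor genes, 8 were called, 5 of them higher. The medians of both families differed little between the groups: olfactory receptor genes had a median level of 5.03 in MK2-/- and 5.13 in MK2/3-/- BMDM, vomeronasal receptor genes of 5.18 and 5.34. Zinc finger genes of the Zfp series, whose median level was 8.42, had 9 of 359 called (2.51%). Whether the low signals on the MK2-/- slide came from the cells or from the slide cannot be told apart.

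Among the lower genes, 52 of 186 were not well above background on any MK2/3-/- array. Fpr3, a gene of the formyl peptide receptor family, read 5.78 to 6.16 in MK2-/- BMDM and 3.66 to 4.01 in MK2/3-/- BMDM, with wt BMDM at 5.00 to 5.63. It was at least 4.33-fold lower (limma adjusted p = 0.000201). The groups stood wide apart, and wt BMDM lay close below the MK2-/- arrays. Ptprt and Rit2, not well above background on any MK2/3-/- array, were at least 4.63-fold and 4.21-fold lower. F11, 4933427I22Rik and Hoxb7 were called lower with 2, 1 and 1 of the MK2/3-/- arrays well above background, and Tmem44 (-2.34, limma adjusted p = 0.0368) with all 3. The other probe of Ptprt gave -0.26 and that of Tmem44 gave -1.2, both with no call. Hoxb7 was not called in 13 of 22 fits without 1 array (adjusted p up to 0.198, without MK2/3-/- replicate 1), Tmem44 in 6, Ptprt in 4 and F11 in 2 (up to 0.133, 0.13 and 0.119, each without MK2/3-/- replicate 2). Rit2, Ptprt and Hoxb7, like Colca2 and Vmn1r73 among the higher genes, were not called with normexp background correction or with dim values at a common floor, the latter an alternative chosen after seeing the data.

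Genes with known roles in macrophages were mostly not called. Over 24 lists of such genes, 527 different genes were tested, 489 of them well above background on all 7 arrays. Only 5 were called (3 higher and 2 lower), and 35 had an unadjusted p below 0.05. The 5 were Mapkapk3, U90926, C2, Aurkb and Src. Mapkapk3, C2 and Src were well above background on all 7 arrays, that is 3 of 489, where 1.68% of all genes so measured were called. Most of these lists had a median level above 10, and among all genes at 10 and above 0.592% were called. Few calls were therefore not particular to these genes.

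In the p38 and MAPKAP kinase pathway, 1 of 30 genes was called, Mapkapk3 itself, and the median difference was -0.01. Mapk14, which encodes p38α, differed by 0.32 with a 95% interval of -0.39 to 1.02, and Mapkapk5, the related kinase PRAK, by -0.28 (-0.56 to 0.01). Mapk13, which encodes p38δ, was the lowest of the list after Mapkapk3, with -1.27 and a limma adjusted p of 0.106. The highest was Mapk12, another p38 isoform gene, with 1.25 and no call. Of the 30 genes, 6 had an unadjusted p below 0.05 in limma. Dusp1, a phosphatase that switches off p38, gave 0.85 (limma adjusted p = 0.167). The test therefore called no p38 isoform, upstream kinase or phosphatase of the list in resting cells.

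Of 32 LPS-inducible cytokine and chemokine genes, 1 was called. This was U90926, a gene annotated as a long noncoding RNA that macrophages make upon LPS. It read 2.03 to 3.49 in MK2-/- BMDM, 6.73 to 6.86 in MK2/3-/- BMDM and 5.56 to 8.83 in wt BMDM. No MK2-/- array was well above background, and the gene was at least 8.71-fold higher in MK2/3-/- BMDM (limma adjusted p = 0.00171). With LPS the order was turned: 11.57 to 13.63 in MK2-/- and 9.70 to 11.34 in MK2/3-/- BMDM, a difference of -2.07 (limma adjusted p = 0.0305). The fitted shift between treatments was -6.12 (limma adjusted p = 0.0136), whose size rests on MK2-/- values below background. With dim values set to a common floor, an alternative chosen after seeing the data, it was -4.16 (adjusted p = 0.0483) and the difference in medium was not called. The shift was not called without MK2/3-/- medium replicates 2 or 3 (adjusted p 0.0533 and 0.0503).

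The cytokines themselves had wide intervals. Tnf differed by 0.60 (95% interval -0.39 to 1.59), Il1b by 0.72 (-0.85 to 2.29) and Il6 by 0.27 (-1.71 to 2.24). Of the 32 genes, 7 were not well above background on any of the 7 arrays. The chemokine genes Ccl3 and Ccl4 had differences of 1.11 and 1.14, at limma adjusted p of 0.277 and 0.308. A 2-fold higher level lay inside the intervals of Tnf, Il1b and Il6, so a change of that size was not excluded for them with 4 and 3 arrays.

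No gene was called among 30 interferon-stimulated genes, 19 genes of NF-κB and its inhibitors, 23 immediate-early genes, 23 Toll-like receptors and adaptors or 30 chemokine and cytokine receptors. Their numbers at an unadjusted p below 0.05 in limma were 0, 1, 2, 0 and 1. The interferon-stimulated genes had 24 of 30 differences above 0, with a median of 0.25 beside -0.03 over all genes. The per-array medians of this list overlapped, at 10.85 to 11.42 in MK2-/- and 10.56 to 11.84 in MK2/3-/- BMDM. The NF-κB list ran from -0.31 (Nfkbib) to 1.68 (Rel), and the immediate-early list from -0.68 (Fosb) to 1.53 (Egr2), with no call. Tlr4, the LPS receptor, differed by -0.07 ± 0.27 (SE).

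Lists of cell function also had few calls. Limma called 0 of 26 lysosomal enzyme genes, 0 of 11 genes of MHC class II and 0 of 15 of class I presentation, 0 of 24 of cholesterol synthesis, 0 of 25 of the respiratory chain, 0 of 19 of glycolysis and 0 of 26 of ribosomal proteins. Their counts at an unadjusted p below 0.05 were 3, 0, 3, 0, 3, 0 and 1. Among 17 complement genes, C2, the protease of the classical pathway, was higher. It read 5.11 to 6.36 in MK2-/- BMDM, 7.61 to 7.63 in MK2/3-/- BMDM and 6.08 to 7.43 in wt BMDM (1.99 ± 0.37, SE; limma adjusted p = 0.0046). Src, among 18 genes of Fc receptors and the NADPH oxidase, was the only one called there, with -0.95 (limma adjusted p = 0.0478). In 17 of 22 fits without 1 array Src did not pass, at adjusted p up to 0.255 without MK2/3-/- replicate 3.

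Mitosis genes had the lowest median of the lists, -0.64, and 28 of 30 differences were negative. None of these 28 was called. Aurkb, the only called member, was at least 2.24-fold higher (limma adjusted p = 0.00315). It read 1.99 to 2.49 on the MK2-/- arrays, none well above background, and 2.94, 5.05 and 6.03 on the MK2/3-/- arrays, 2 of them well above background. Its call was absent with normexp background correction, with only the compared groups in the fit, in the adjusted t-test of the methods, with the replicate block and with dim values at a common floor. Without 1 array its difference ran from 1.86 to 3.41 and was called each time. The per-array median of the list was 12.43, 10.30, 11.17 and 9.76 on the MK2-/- arrays, against 9.72, 10.71 and 11.35 on the MK2/3-/- arrays. The groups overlapped, with MK2-/- replicate 1 highest. Top2a, the topoisomerase of dividing cells, followed this order (12.48, 10.85, 11.51 and 9.92 against 9.63, 10.36 and 11.33). DNA replication genes, 0 of 30 called, had a median of -0.21.

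**Figure D4:**
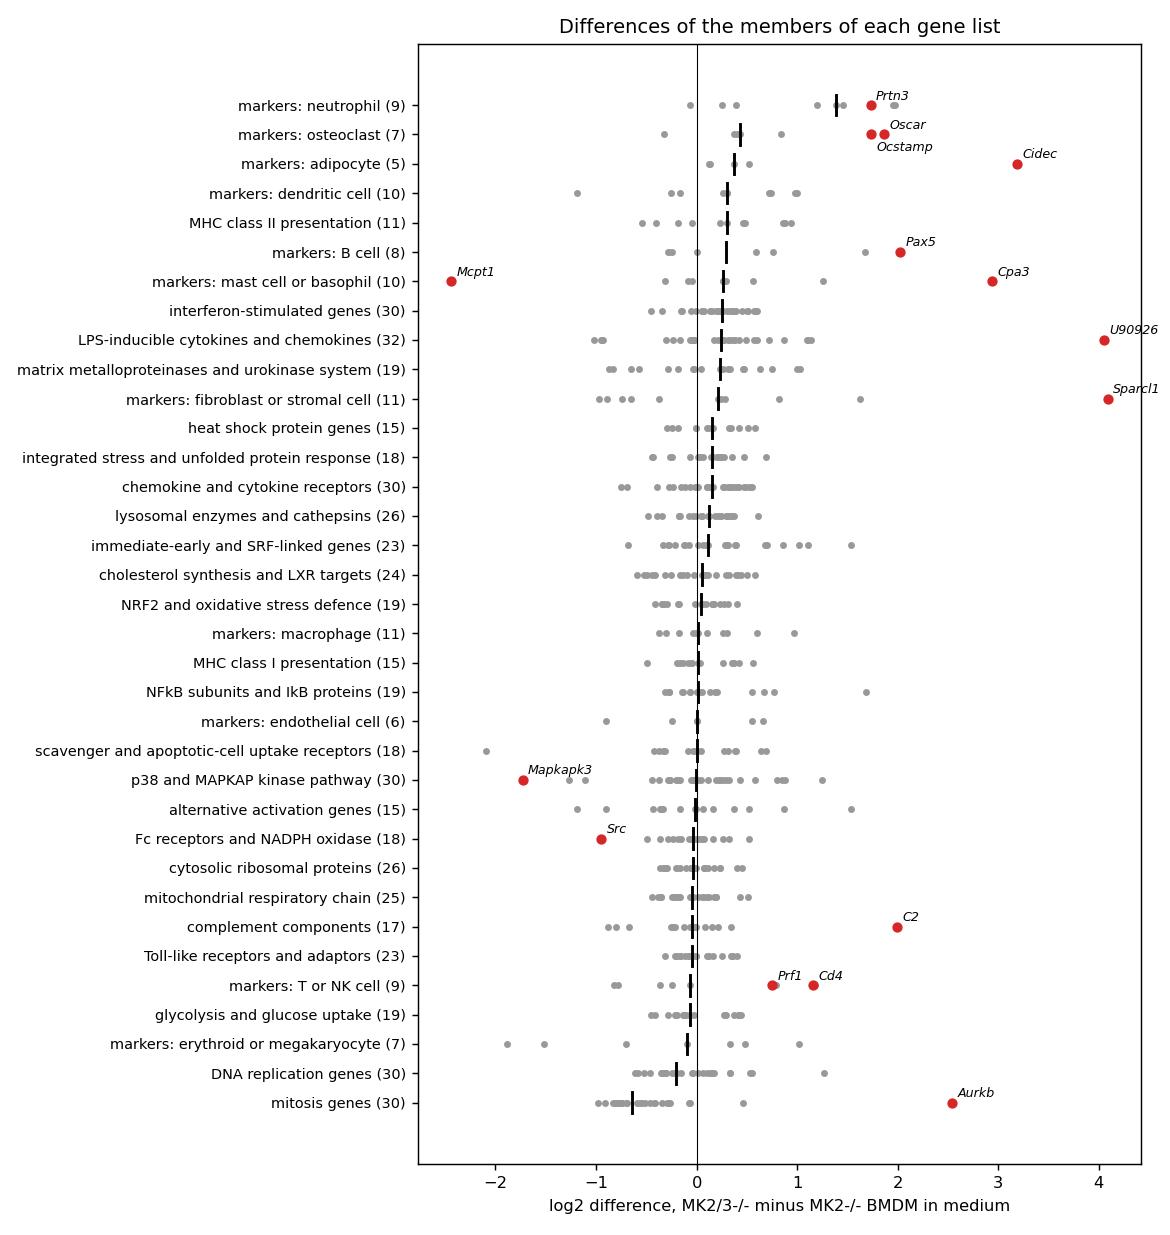
Log2 difference between MK2/3-/- and MK2-/- BMDM in medium (x axis) for the tested members of each gene list and marker list (y axis, number of members in brackets). Grey points were not called, red points with a symbol were called and black bars are medians. Most lists lay around 0, with the mitosis genes lowest (-0.64) and the neutrophil markers highest (1.39).

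The identity of the cells was checked against markers. Calls in the marker lists stand beside 2.83% of all genes, 3.78% of those with a mean signal of 6 to 8 and 5.16% of those below 6. The lists are short, and their counts were not tested against these shares. All 11 macrophage markers tested were well above background on all 7 arrays and 0 were called, 1 having an unadjusted p below 0.05 in limma. Csf1r, the receptor for M-CSF, had a mean of 18.36 in MK2-/- and 18.37 in MK2/3-/- BMDM. The summed macrophage marker signal (log2) was 19.78 to 20.05 in MK2-/- and 19.90 to 20.18 in MK2/3-/- BMDM. In such bulk RNA, fewer cells of a type and less RNA per cell cannot be told apart.

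Neutrophil marker genes had the highest median of the lists plotted. Of 9 tested, 8 had a difference above 0, the median was 1.39 and 1 was called. This was Prtn3, which encodes proteinase 3, at least 2.85-fold higher (limma adjusted p = 0.0164), not called without MK2-/- replicate 3 or MK2/3-/- replicates 1 or 2 (adjusted p 0.0542 to 0.0982). The summed signal was 11.87 to 13.32 in MK2-/- and 12.71 to 14.06 in MK2/3-/- BMDM, so the groups overlapped. S100a9, a calcium-binding protein of granulocytes, was lowest on MK2-/- replicate 3 (7.03) and highest on MK2/3-/- replicate 2 (13.17), with 9.88 to 11.66 on the other arrays. The part of such cells in the results was not tested.

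Of 7 osteoclast markers 2 were called, both higher. Ocstamp, a transmembrane protein of macrophage fusion into osteoclasts, read 6.50 to 7.25 in MK2-/- BMDM, 8.44 to 8.72 in MK2/3-/- BMDM and 7.77 to 8.28 in wt BMDM. The difference was 1.73 ± 0.30 (SE; limma adjusted p = 0.00302). Oscar, a collagen receptor of osteoclast precursors, read 6.18 to 7.28, 8.46 to 8.51 and 7.59 to 8.25 in the same order (1.86 ± 0.38, SE; limma adjusted p = 0.00944). None of the other 5 was called. Dcstamp, also of cell fusion, differed by 0.84, Calcr, the calcitonin receptor, by 0.43, Atp6v0d2, a proton pump subunit, by 0.40, Ctsk, cathepsin K, by 0.37 and Acp5, the tartrate-resistant phosphatase, by -0.32. Summed osteoclast marker signal was 12.63 to 13.97 in MK2-/- and 12.79 to 14.17 in MK2/3-/- BMDM.

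Of 9 T or NK cell markers, Cd4 and Prf1 were called, both higher. Cd4, the coreceptor of helper T cells, read 11.20, 12.15, 11.19 and 11.49 in MK2-/- BMDM, 12.77, 12.35 and 12.86 in MK2/3-/- BMDM and 10.92 to 11.66 in wt BMDM (1.16 ± 0.29, SE; limma adjusted p = 0.0344). Cd4 did not pass in 6 of the 22 fits that left out 1 array, at values of 1.05 to 1.31: those without MK2-/- replicates 1, 3 or 4 or any MK2/3-/- medium array. A second, dimmer probe of Cd4 gave 0.16 with no call. Prf1, encoding perforin, was higher by 0.75 (limma adjusted p = 0.0425), and that call was lost in 12 of 22 such fits, at adjusted p up to 0.175 without MK2/3-/- replicate 1. The other 7 were not called: Cd8a, the coreceptor of cytotoxic T cells, was 1.18 and the NK cell receptor Ncr1 0.79, while the T cell receptor components Cd3e and Cd3d were -0.82 and -0.78, the T cell kinase Lck -0.36, Cd2 -0.24 and Klrb1c -0.07. The summed signal of the list was 12.49 to 13.35 in MK2-/- and 12.89 to 13.32 in MK2/3-/- BMDM.

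The remaining marker calls were dim, and those of the mast cell list went both ways. The B cell (8 tested), adipocyte (5 tested) and stromal (11 tested) lists had 1 call each, higher. Of 10 mast cell markers, Cpa3, carboxypeptidase A3, was at least 2.71-fold higher (limma adjusted p = 0.00532) and Mcpt1, a mast cell protease, was -2.44 (limma adjusted p = 0.00732). Mcpt1 was not called without MK2/3-/- replicate 1 or 3 (adjusted p 0.0582 and 0.0609). Pax5, the B cell transcription factor, was higher by 2.02 (limma adjusted p = 0.0097), but not without MK2/3-/- replicate 3 (adjusted p = 0.0558), and its other probe gave -1.66 with no call. Cidec, a lipid droplet protein of adipocytes, was higher by 3.19 (limma adjusted p = 0.0054). Sparcl1 was the only one of 11 stromal markers called. Dendritic, erythroid and endothelial lists had 0 of 10, 0 of 7 and 0 of 6 called in limma, and 1, 3 and 2 at an unadjusted p below 0.05.

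The same genotypes under LPS gave a second set of 8 arrays, from the same slides. The MK2-/- mice had the same ages, replicate by replicate, as in medium, and whether they were other mice was not tested. The main fit took all arrays as independent. MK2-/- LPS replicate 3 was the other array of low Y-linked signal. It had 2927 flagged spots, against 115 to 261 on every other array of the series. With LPS limma called 3033 genes (13.6%). Of the 632 genes called in medium, 501 were also called with LPS in the same direction and 1, U90926, in the opposite one. These 501 were 79.3% of the medium list and 16.5% of the LPS list. The share was 403 of 446 for higher genes and 98 of 186 for lower genes, and 236 of 284 for genes well above background on all 7 medium arrays.

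Cdhr2 gave 1.95 with LPS (limma adjusted p = 0.000366), Ocstamp 2.29 (3.85e-05) and Plcxd1 -1.36 (0.000144). The difference between treatments was called for 15 genes (0.0672%), 6 of which were among the 632: Mapkapk3, Parp3, U90926, Adgrg5, Cbx7 and Tcl1b2. Without MK2/3-/- medium replicate 2 or 3 the 15 became 1, and of the 6 Mapkapk3 alone was called in all 22 fits without 1 array, U90926 in 20, Adgrg5 and Cbx7 in 8 and Parp3 and Tcl1b2 in 3. Adgrg5, an adhesion G protein-coupled receptor gene, was at least 2.97-fold higher in medium. Its probe passed the background filter only through the 3 MK2/3-/- medium arrays, the group where it was high, so its calls are not independent of that filter. With LPS none of its arrays of either genotype was well above background, so no difference could be measured there. The same held for Cbx7, a Polycomb group gene that was at least 1.36-fold higher in medium. The Cbx7 probe passed the filter through 2 MK2/3-/- medium arrays and 1 wt medium array. Tcl1b2 went from 1.66 in medium to 3.83 with LPS (interaction 2.16, limma adjusted p = 0.0494). With dim values at a common floor, neither Adgrg5 nor Cbx7 was called in medium or in the interaction.

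**Figure D5:**
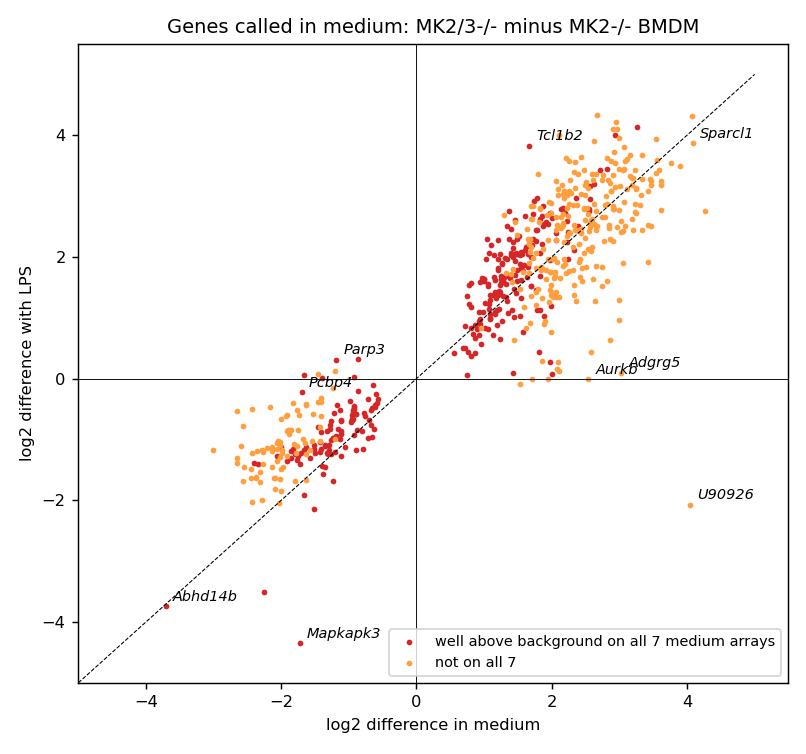
Log2 difference between MK2/3-/- and MK2-/- BMDM in medium (x axis) and with LPS (y axis) for the 632 genes called in medium. Red points were well above background on all 7 medium arrays, orange points were not, and the dashed line marks equal differences. U90926 alone was called in opposite directions, while Mapkapk3 fell below the line and Parp3 and Pcbp4 lay near 0 with LPS.

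Set against wt BMDM in medium, which share arrays with the comparison above, limma called 1980 genes in MK2-/- BMDM (8.87%) and 451 in MK2/3-/- BMDM (2.02%). With 75th percentile scaling these counts were 4892 and 4253, so the gap between them depends on the scaling. Without MK2-/- replicate 2 the counts were 780 and 744. The first was 812 and 1112 without wt replicates 1 and 4 and 1238 without MK2-/- replicate 1. The second was 20, 191 and 115 without MK2/3-/- replicates 1, 2 and 3, and 82 to 232 without 1 of the 4 wt arrays. Abhd14b differed from wt by -0.14 in MK2-/- and by -3.86 in MK2/3-/- BMDM, Plcxd1 by -0.02 and -1.93, and Parp3 by -0.23 and -1.42. Cdhr2 differed by -0.89 and 1.08. Sparcl1, Doc2b and U90926 differed from wt by 0.55, 0.37 and -0.14 in MK2/3-/- BMDM, and were well above background on all 4 wt arrays but on none of the MK2-/- arrays.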

How the data were processed

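RNA was labelled with Cy3 and hybridised to 1-colour Agilent mouse 8x60K arrays. The deposited intensity values came from Agilent Feature Extraction (version 11.0.1.1 per the file headers). The authors' series table holds log2 values, quantile-normalized and set relative to a median per their methods, and was used as an alternative only. Its columns had medians of -0.0736 to 0.0828, and against the quantile-normalized scanner signals, centred by probe over all arrays, they ran with r of 0.993 to 0.999 and slopes of 0.971 to 0.994.

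Processed signals were log2-transformed and quantile-normalized over all 22 arrays. Control spots and outlier-flagged spots were left out, and spots of 1 probe were averaged. A probe was kept if well above background on at least 3 arrays, and a gene was represented by its kept probe of highest mean (22318 genes, 18339 with a symbol). Groups were compared with limma 3.58.1 (R 4.3.3) in 1 fit of 6 groups and 22 arrays, two-sided, with Benjamini-Hochberg adjustment over all genes, called below 0.05. The procedure was tested on simulated data. Alternatives comprised other scalings, filters, probes, sample sets, blocks, array weights, the methods' t-test and leaving out each array.

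The comparison, members and lists were chosen with earlier results of these data known. Named genes were both targets, the 12 largest calls in each direction with no overlap and all arrays of the higher group well above background, called neighbours within 30 genes of Mapkapk3, called members of lists and marker lists and genes also called in the interaction. Further genes well above background on all 7 arrays, and the uncalled genes named, were chosen after their values were seen. A result selected by this rule is not reported here.

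Replicates are samples numbered in the labels, and the methods describe the repeats of a time point as independent experiments. Same-numbered arrays of both groups deviated together (r = 0.131, 0.14 and 0.164), so the numbers in their titles were taken as pairs. Some differently numbered arrays were closer, namely MK2-/- 4 with MK2/3-/- 3 (r = 0.344, the same array letter) and MK2-/- 2 with MK2/3-/- 1 (r = 0.188), so the pairing is uncertain, and with it the blocked fit. All arrays of a genotype shared 1 slide. The number of arrays limits the precision.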

Additional observations from a re-analysis of the deposited data

Results flagged for a closer look

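In groups of 4 arrays, a single array stood far from the other 3 in 10 of 174 groups examined, by its gap to the nearest array as a share of the whole range, and chance alone gives about 1 in 20. All 10 were MK2-/- medium groups. The high array was alone in Vmn1r73 (0.963; 2.59 against 2.01 to 2.03), Doc2b (0.973; 2.83 against 2.01 to 2.03), Aurkb (0.906; 2.49 against 1.99 to 2.03) and Adgrg5 (0.84; 2.15 against 2.01 to 2.03), where all 4 arrays were at the bottom of the scale. It was also alone in Tcl1b2 (0.874; 7.59 against 6.74 to 6.85), Prtn3 (0.957; 4.2 against 3.04 to 3.09) and Pvt1 (0.95; 8.99 against 8.12 to 8.16). The low array was alone in Mapk13 (0.931; 5.93 against 6.58 to 6.63), Nrgn (0.912; 5.52 against 6.48 to 6.57) and Arfip1 (0.958; 8.3 against 8.88 to 8.9).

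The difference between the genotypes was itself different with LPS, by limma's interaction term, for 6 genes called in medium. The shift from medium to LPS was -6.12 for U90926, -2.93 for Adgrg5, -2.61 for Mapkapk3, -1.96 for Cbx7, 1.49 for Parp3 and 2.16 for Tcl1b2. Adgrg5 and Cbx7 had no LPS array of these genotypes well above background, and U90926, Adgrg5 and Cbx7 had no such MK2-/- medium array, so the size of these 3 shifts is set in part by the lower end of the scale. The Adgrg5 probe was tested only because it passed the filter on the MK2/3-/- medium arrays.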

How the results depend on the processing

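Of the values of single named genes under the alternatives, 3133 kept their direction and side of the threshold, 385 kept the direction without passing, 14 newly passed and 9 turned sign. With the probe of highest LPS induction in wt BMDM, Cyp4a31 was -0.26, Mapk14 -0.17, Npas3 -1.11, Siglecg 0.78 and Zfp352 -0.21. Il6 was -0.001346 with the replicate block, and -0.0371 (without MK2/3-/- medium replicate 1) to 0.66 without 1 array, below 0 also without MK2-/- medium replicate 4. Tlr4 was -0.22 to 0.15 without 1 array, above 0 without MK2/3-/- medium replicate 3. Mapkapk2 (-0.44) passed by the methods' t-test, unadjusted, and Mapkapk3 with the replicate block (-1.67) did not pass. The cause was not tested for any of these.

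The 632 genes called in medium became 394 with normexp background correction, 1012 when normalized within the medium arrays, 3464 by the methods' t-test (354 adjusted), 1781 with array weights, 0 with the replicate block and 294 to 759 without 1 array. Alternatives chosen after seeing the data gave 213 in a fit of the 16934 genes well above background on all 7 arrays, 487 with dim values at a common floor and 438 without both arrays of low Y-linked signal. With LPS, 3033 became 1292 with only the groups compared, 719 by the adjusted t-test, 1183 with the replicate block and 1810 to 3276 without 1 array. The interaction's 15 became 9 with the authors' value table, 8 with only the groups compared, 31 with array weights, 7 with the replicate block, 25 with a random block by array letter, 57 with the common floor and 1 to 41 without 1 array. MK2-/- against wt (1980) gave 4892 with 75th percentile scaling, 1112 at a 2-fold minimum, 5631 by the t-test (784 adjusted), 3042 with array weights, 97 with the replicate block and 780 to 2383 without 1 array. MK2/3-/- against wt (451) gave 4253 with 75th percentile scaling, 284 with the authors' table, 703 with only the groups compared, 4964 by the t-test (157 adjusted), 1827 with array weights, 0 with the replicate block (234 in all 22 arrays, chosen after seeing the data) and 20 to 744 without 1 array. Signal over background limits the calls of dim genes.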
